A study of Mus musculus with 14 samples.

Results

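The oligodendrocyte lineage was followed through 8 genes, Olig1, Olig2, Nkx2-2, Pdgfra, Gpr17, Bcas1, Cnp and Mbp, of the 53700 genes in the deposited tables. They were taken by gene symbol and joined by gene identifier to the tables of both comparisons. Poly-A RNA was sequenced from adult neural stem and progenitor cells (NSPCs) of C57BL/6 mice, the cultured form of the cells that make neurons and glia in the adult brain. Proliferating NSPCs were kept in FGF and EGF (4 libraries), and quiescent NSPCs were treated with BMP4 (4 libraries). GFP control NSPCs received a GFP adeno-associated virus (3 libraries), and Yme1l KO NSPCs received a Cre-GFP adeno-associated virus (3 libraries), both in FGF and EGF. The series compared quiescent with active cells and wild-type with Yme1lKO cells. Yme1l1 encodes a protease of the inner mitochondrial membrane. The labels of all 14 libraries name a wild-type mouse. Those of the KO libraries add the virus. They name neither the Yme1l1 allele nor the promoter that drives Cre. Nothing in them tells whether the replicates of a group came from different animals or dishes, so a p-value here speaks of the spread between libraries, which may be technical.

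Oligodendrocytes are the glia that wrap axons in myelin. They arise from progenitors that carry the PDGF receptor encoded by Pdgfra, and they pass through a committed stage marked by Gpr17 and Bcas1 before they make the myelin proteins encoded by Cnp and Mbp. Olig1, Olig2 and Nkx2-2 encode transcription factors of the lineage, and Olig2 is also made by dividing progenitors in culture that can still take other fates. BMP signalling is known to steer such progenitors away from oligodendrocytes and toward astrocytes, in part through the Id proteins, which bind and block factors of the Olig kind.

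Promoter sequences were given for 4 of the 8 genes, Olig2, Nkx2-2, Pdgfra and Cnp, in a RefSeq table of build GRCm38.p6, which is not the build of the deposited tables. Stretches are shown from the promoter windows of Olig2 and Nkx2-2, regulators that fell in quiescent cells. Another is from that of Cnp, whose transcript did not pass the test. Each is read 5′ to 3′ on the gene's strand and ends before the first annotated exon that falls in its promoter window. That exon need not be the first of the gene, so a stretch can lie inside the annotated gene. The Nkx2-2 stretch ends in a run rich in C and T followed by ag, as introns do. It may therefore be intron rather than promoter. Capitals mark the E-box CANNTG, the motif that basic helix-loop-helix factors such as Olig2 are known to bind.
Olig2 (chr16:91225300-91225456, plus strand): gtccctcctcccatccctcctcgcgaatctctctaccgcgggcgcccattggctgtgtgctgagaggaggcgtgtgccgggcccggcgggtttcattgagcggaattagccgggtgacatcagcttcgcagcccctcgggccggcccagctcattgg
Nkx2-2 (chr2:147186456-147186652, minus strand): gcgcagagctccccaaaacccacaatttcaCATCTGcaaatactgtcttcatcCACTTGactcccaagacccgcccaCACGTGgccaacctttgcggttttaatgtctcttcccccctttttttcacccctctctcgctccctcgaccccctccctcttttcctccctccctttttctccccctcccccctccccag
Cnp (chr11:100574689-100574903, plus strand): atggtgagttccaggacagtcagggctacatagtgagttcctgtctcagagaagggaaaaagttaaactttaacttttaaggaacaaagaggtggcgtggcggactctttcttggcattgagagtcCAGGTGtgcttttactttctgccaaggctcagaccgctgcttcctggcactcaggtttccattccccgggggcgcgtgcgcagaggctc

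The E-box reads the same on both strands, so each match was counted once. The Nkx2-2 stretch (197 bases, 56.3% G and C) holds 3 matches, and 58.6% of the 32851 promoter windows of that length in the table hold at least 1. The Cnp stretch (215 bases, 52.1% G and C) holds 1 match, against a share of 61.4% of windows. In the Olig2 stretch (157 bases, 66.9% G and C) these letters do not occur, and 50.8% of windows of that length hold them. A second motif, GGCGCC, a motif that Smad proteins of the BMP pathway are known to bind, was also searched on both strands. It occurs 1 time in Olig2 and 0 times in Nkx2-2 and Cnp. It was found in 5.2%, 7.0% and 7.9% of windows of these lengths. These matches describe the letters and are not binding sites.

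Coordinates in the deposited tables are of GRCm39. Olig2 (ENSMUSG00000039830, 91022345 to 91025565) and Olig1 (ENSMUSG00000046160, 91066660 to 91068821) lie on the plus strand of chromosome 16, with 41094 bases between them. Nkx2-2 (ENSMUSG00000027434, 147019466 to 147036163) and Bcas1 (ENSMUSG00000013523, 170188911 to 170269765) lie on the minus strand of chromosome 2. Pdgfra (ENSMUSG00000029231) spans 75312953 to 75358876 of chromosome 5, and Cnp (ENSMUSG00000006782) spans 100465730 to 100482555 of chromosome 11, both on the plus strand. Mbp (ENSMUSG00000041607, 82493271 to 82603762, plus strand) and Gpr17 (ENSMUSG00000052229, 32076050 to 32082689, minus strand) are on chromosome 18. All are annotated as protein-coding.

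The 2 pairs of groups come from tables quantified separately, and each was tested on its own. Library totals ran from 6475099 to 8992709 counts in the first pair and from 9053124 to 10320736 in the second. Yme1l1 was 135, 124 and 121 CPM (reads scaled to a common library size by TMM) in the GFP control and 25.7, 25.6 and 22.9 CPM in the KO libraries. In a principal component analysis, KO replicate 3 (36.5 on the first component) lay away from the other KO libraries (18.6 and 16.6). Quiescent replicate 2 did so on the second component (27.1, with its group at -14.0 to -4.76). Each of the 13 stem and progenitor markers had counts in every group. Microglial markers summed to at most 10.7 CPM in a library and vessel markers to at most 22.3 CPM. Neuroblast and neuron markers summed to 83.6 to 137 CPM in libraries of the first pair and to 1221 to 1316 CPM in those of the second.

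**Figure D1:**
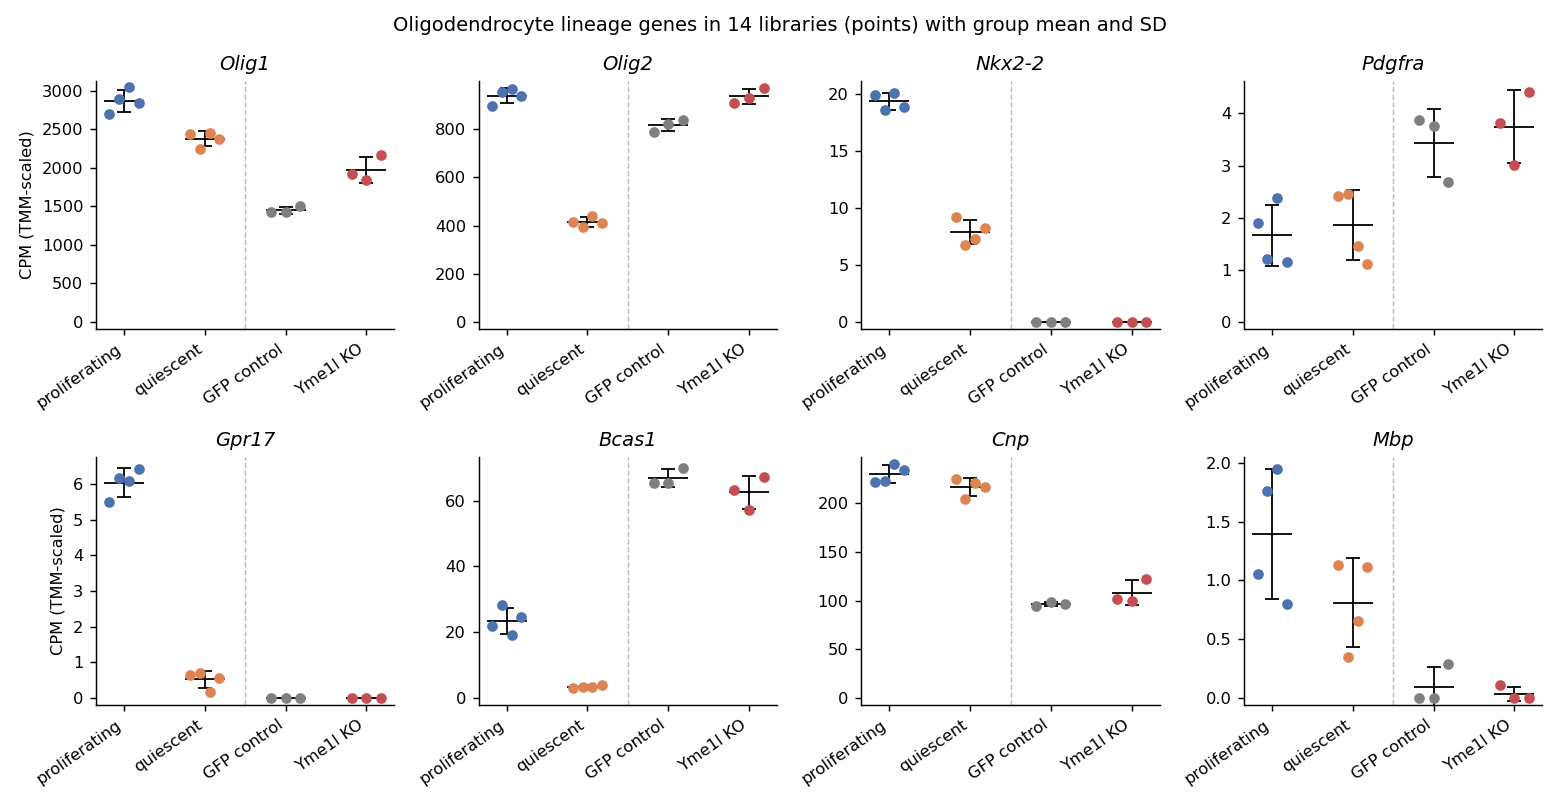
CPM of the 8 genes (y axes, linear) in each of the 14 libraries (points), with the mean and SD of each group (bars). The dashed line parts the separately quantified tables. Olig2, Nkx2-2, Gpr17 and Bcas1 of the quiescent libraries sit well below the proliferating ones, while Olig1 and Olig2 of the KO libraries sit above the GFP control.

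In BMP4-induced quiescence, 5 of the 7 lineage genes that could be tested fell and 0 rose. They were the transcription factor genes Olig1, Olig2 and Nkx2-2, the receptor gene Gpr17, and Bcas1. The losses ran from 1.205-fold for Olig1 to 11.07-fold for Gpr17. Cnp and Pdgfra did not pass the test, and Mbp was too low to be tested. Of all 12245 genes tested, 65.4% were called, 35.5% as lower and 29.9% as higher, and the groups did not overlap for 59.7%. The median log2 fold change was -1.18 over the 7 genes and -0.01 over all genes. The count of 0 rising genes was also 0 at an unadjusted p under 0.05 and with DESeq2 and limma. Since these are bulk libraries, fewer cells of a type and less RNA per cell cannot be told apart.

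Olig2, a basic helix-loop-helix factor needed to specify the lineage, measured 895, 953, 967 and 939 CPM in proliferating replicates 1, 2, 4 and 5. It measured 414, 393, 440 and 412 CPM in quiescent replicates 1 to 4. Every quiescent library lay below every proliferating one, and the spread within each group was small beside the gap. Mean levels were 938 ± 31.0 CPM (SD, n = 4) and 415 ± 19.1 CPM (SD, n = 4), a log2 fold change of -1.18 (SE 0.04, edgeR adjusted p = 1.54e-12).

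Olig1, its neighbour on chromosome 16 and a factor of the same family with a role in later maturation, measured 2694, 2885, 3041 and 2837 CPM in the proliferating libraries. In the quiescent libraries it measured 2443, 2240, 2453 and 2374 CPM. The groups did not overlap, but the gap was a small part of the level. This gave Olig1 a log2 fold change of -0.27 (SE 0.04, edgeR adjusted p = 6.33e-05). Without quiescent replicate 2, the library that stood apart, it was -0.16 (adjusted p = 0.000568), and with library size alone as the scaling it was -0.41.

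Nkx2-2 encodes a homeodomain factor that acts beside Olig2 in the lineage. It measured 19.9, 18.5, 20.1 and 18.8 CPM in the proliferating libraries and 9.21, 6.77, 7.32 and 8.23 CPM in the quiescent ones. All 4 quiescent libraries were below all 4 proliferating ones. Nkx2-2 had a log2 fold change of -1.30 (SE 0.13, edgeR adjusted p = 1.87e-07). The transcript Nkx2-2-201 held 85.1% to 98.0% of Nkx2-2 counts in the proliferating libraries and at least 78.1% in the quiescent ones. An antisense gene, Nkx2-2os, overlaps Nkx2-2, and the deposited sample sheet gives the libraries as stranded.

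Among the receptors, Gpr17, a G protein-coupled receptor of committed oligodendrocyte precursors, had 52, 56, 56 and 56 counts in the proliferating libraries. It had 4, 6, 1 and 4 counts in the quiescent libraries, or 15 in all against 220. These are few reads in the quiescent group, and no quiescent library came near a proliferating one. Mean levels of Gpr17 were 6.04 ± 0.401 CPM (SD, n = 4) and 0.517 ± 0.243 CPM (SD, n = 4), with a log2 fold change of -3.47 (SE 0.32, edgeR adjusted p = 8.43e-08). On the log2(TPM + 1) scale, which understates the change of low genes, limma gave -1.36.

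Pdgfra, the receptor that defines oligodendrocyte progenitors in tissue, was near the detection limit. It measured 1.90, 1.21, 2.39 and 1.15 CPM in the proliferating libraries and 2.42, 2.45, 1.46 and 1.12 CPM in the quiescent ones, or 61 against 53 counts. The groups overlapped throughout. The log2 fold change was 0.17 (SE 0.36, edgeR adjusted p = 0.692), with a 95% interval from -0.53 to 0.87.

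Bcas1, a membrane-linked protein that marks oligodendrocytes early in myelination, measured 21.8, 28.4, 19.0 and 24.6 CPM in the proliferating libraries. It measured 2.91, 3.39, 3.42 and 4.05 CPM in the quiescent libraries. Proliferating libraries differed more among themselves than those of Olig2, yet the groups stood far apart. For Bcas1 the log2 fold change was -2.76 (SE 0.16, edgeR adjusted p = 5.03e-10), or 6.761-fold lower.

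Cnp encodes an enzyme of the myelin sheath's inner layers, and it stayed at a high level in both states. It measured 222, 223, 241 and 234 CPM in the proliferating libraries and 225, 205, 221 and 217 CPM in the quiescent ones. The groups overlapped through quiescent replicate 1. The log2 fold change of Cnp was -0.08 (SE 0.05, edgeR adjusted p = 0.126), with a 95% interval from -0.18 to 0.01. It was 0.0286 without quiescent replicate 2 and -0.22 (adjusted p = 0.000195) with library size alone, a scaling under which the median of all genes was -0.15.

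Mbp encodes myelin basic protein, a main component of compact myelin. It had 10, 16, 18 and 7 counts in the proliferating libraries and 7, 3, 4 and 8 in the quiescent ones, which overlap. Its totals were 51 and 22 counts, while its mean TPM was 0.900 ± 0.428 (SD, n = 4) and 0.906 ± 0.576 (SD, n = 4). The reads of Mbp were split over several transcripts. Mbp-205 held 30% to 75.2% of them in the proliferating libraries and 13.7% to 33.3% in the quiescent ones, shares that overlap and rest on 3 to 18 counts per library.

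**Figure D2:**
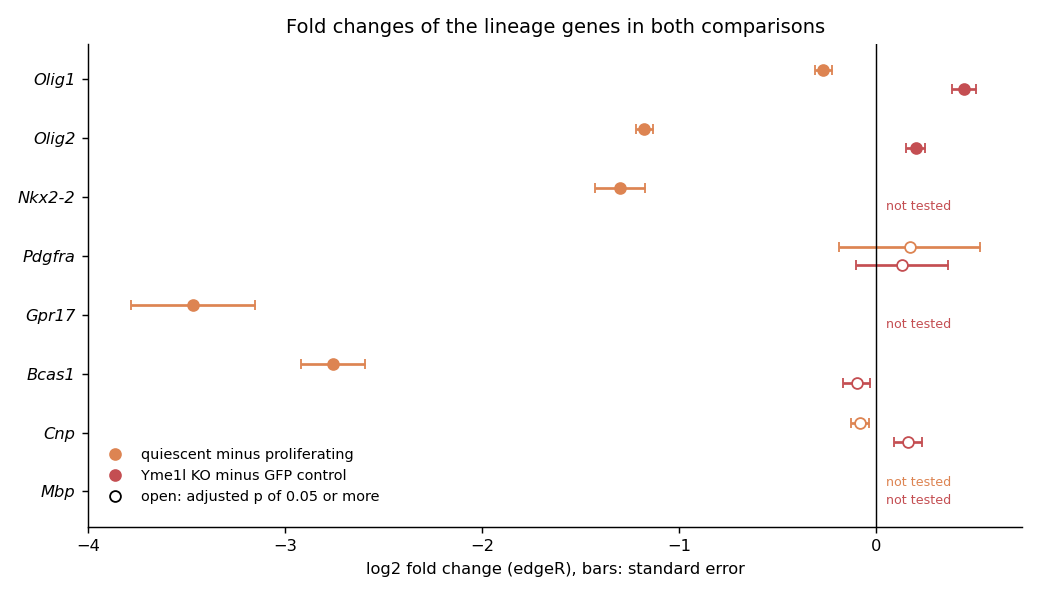
Log2 fold changes with their standard errors (x axis) of the 7 lineage genes tested in the comparison of quiescent with proliferating cells and of the 5 tested in that of Yme1l KO with GFP control, filled where the edgeR adjusted p was under 0.05. Gpr17 (-3.47) and Bcas1 (-2.76) lie farthest below 0 in quiescence, and only Olig1 and Olig2 are filled in the KO comparison, both above 0.

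In Yme1l KO cells, 2 of the 5 lineage genes that could be tested rose, Olig1 by 1.36-fold and Olig2 by 1.148-fold, and 0 fell. Cnp, Bcas1 and Pdgfra did not pass the test. Of all 12625 genes tested, 51.6% were called, 25.4% as higher and 26.2% as lower. The groups did not overlap for 3 of the 5 (Olig1, Olig2 and Cnp), against 61.4% of all genes. At an unadjusted p under 0.05 the count of falling genes was 0 as well, as was the count with DESeq2 and with limma. Without KO replicate 3, edgeR called 1 (Bcas1) and DESeq2 called 0.

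Olig1 measured 1424, 1419 and 1501 CPM in the GFP control and 1917, 1835 and 2158 CPM in the KO libraries. All KO libraries were higher, and KO replicate 3 was the highest. Olig1 had a log2 fold change of 0.44 (SE 0.06, edgeR adjusted p = 2.83e-05), and without that library it was 0.37 (adjusted p = 1.44e-18). The adjusted p fell although the effect was smaller and fewer libraries were used, so it is not read as stronger evidence.

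Olig2 measured 788, 820 and 837 CPM in the GFP control and 910, 927 and 970 CPM in the KO libraries. The groups did not overlap, and the rise was small beside the fall in quiescence. For Olig2 the log2 fold change was 0.20 (SE 0.05, edgeR adjusted p = 0.00298), and 0.17 (adjusted p = 2.32e-06) without KO replicate 3. The lower adjusted p with fewer libraries is again not read as stronger evidence.

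Nkx2-2 and Gpr17 had 0 counts in all 6 libraries of this pair. A count of 0 allows, at 3 counts over the group, up to 0.102 CPM in the GFP control and 0.107 CPM in the KO. Both genes were detected in every library of the other pair, though the pairs were quantified separately and share no library. Mbp had 3 counts in GFP control replicate 3 and 1 count in KO replicate 1, and 0 in the other libraries.

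Pdgfra measured 3.87, 3.75 and 2.68 CPM in the GFP control and 3.82, 3.01 and 4.41 CPM in the KO libraries, which overlap. Pdgfra had a log2 fold change of 0.13 (SE 0.23, edgeR adjusted p = 0.67), with a 95% interval from -0.33 to 0.59.

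Bcas1 measured 65.2, 65.5 and 70.0 CPM in the GFP control and 63.1, 57.2 and 67.1 CPM in the KO libraries. KO replicate 3 lay inside the range of the control and the other KO libraries below it. The log2 fold change of Bcas1 was -0.10 (SE 0.07, edgeR adjusted p = 0.245), and without KO replicate 3 it was -0.15 (edgeR adjusted p = 0.0426). DESeq2 without KO replicate 3 called 0 lineage genes lower.

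Cnp measured 94.3, 98.3 and 97.0 CPM in the GFP control and 101, 99.8 and 123 CPM in the KO libraries. Its groups did not overlap, and most of the gap in means came with KO replicate 3. The log2 fold change of Cnp was 0.16 (SE 0.07, edgeR adjusted p = 0.0777), 0.06 (adjusted p = 0.341) without KO replicate 3 and 0.21 (adjusted p = 0.032) without KO replicate 2.

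The KO effect was set against the quiescence effect in a fit of all 14 libraries, for the 5 genes that could be tested in it. The pairs also differed in Yme1l1 itself, which was lower in the first pair than in the KO libraries. Its mean was 3.49 ± 1.11 CPM in proliferating and 6.18 ± 3.31 CPM in quiescent cells (SD, n = 4 and 4). Quiescent replicate 2 stood highest of these, at 11.1 CPM. Mean Yme1l1 was 127 CPM in the GFP control and 24.7 CPM in the KO. The cause of this gap was not tested. Yme1l1 rose by 0.85 on the log2 scale in quiescence (edgeR adjusted p = 0.0472), a call lost under 9 of 19 alternatives. The effects differed for Bcas1 by 2.61 on the log2 scale (SE 0.19, edgeR adjusted p = 5.18e-10), for Olig2 by 1.33 (SE 0.07, adjusted p = 7.14e-12) and for Olig1 by 0.66 (SE 0.08, adjusted p = 1.36e-06). For Olig1 and Olig2 the effects had opposite signs. Bcas1 fell in quiescence, while its KO effect of -0.10 did not pass the test (edgeR adjusted p = 0.245). The difference for Cnp was 0.19 (SE 0.09, adjusted p = 0.109), and for Pdgfra it was -0.09 (SE 0.42, adjusted p = 0.891). Of all 13580 genes in that fit, 38.9% had effects that differed.

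Per transcript length, in TPM, Olig1 was the most abundant of the 8 genes in every group. Its mean was 2398 ± 97.3 TPM (SD, n = 4) in proliferating and 2009 ± 55.6 TPM (SD, n = 4) in quiescent cells, rank 43 and rank 52 of all genes. It was 1285 ± 43.2 TPM (SD, n = 3) in the GFP control, rank 101, and 1752 ± 148 TPM (SD, n = 3) in the KO, rank 55. Olig2 followed with 662 TPM in proliferating cells, 296 in quiescent cells, 610 in the GFP control and 701 in the KO. Cnp came next with means of 78.6 to 176 TPM in the 4 groups. Below it the order differed between the tables. In proliferating cells Nkx2-2 (16.5 to 20.3 TPM) and Bcas1 (13.1 to 17.4 TPM) were neighbours whose libraries overlapped, and in the GFP control Bcas1 was at 45.4 TPM with Nkx2-2 at 0. Gpr17 (1.84 to 2.12 TPM in the proliferating libraries and lower elsewhere), Pdgfra (means of at most 1.19) and Mbp (means of at most 0.906) were low in every group, Nkx2-2 and Gpr17 were at 0 in the GFP control and KO, and the means of Pdgfra and Mbp lay within their spread in both groups of the first pair.

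Because Olig1 and Olig2 lie side by side, their TPM ratio was also taken within each library, a measure chosen after their values were seen. It was 3.57, 3.59, 3.73 and 3.58 in the proliferating libraries and 6.99, 6.76, 6.62 and 6.84 in the quiescent ones. In the GFP control it was 2.15, 2.05 and 2.13, and in the KO libraries 2.50, 2.35 and 2.64. Groups overlapped in neither pair, and a ratio within a library does not depend on its scaling. The ratio was 1.88-fold higher in quiescence and 1.183-fold higher in the KO, given as a description with no test.

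**Figure D3:**
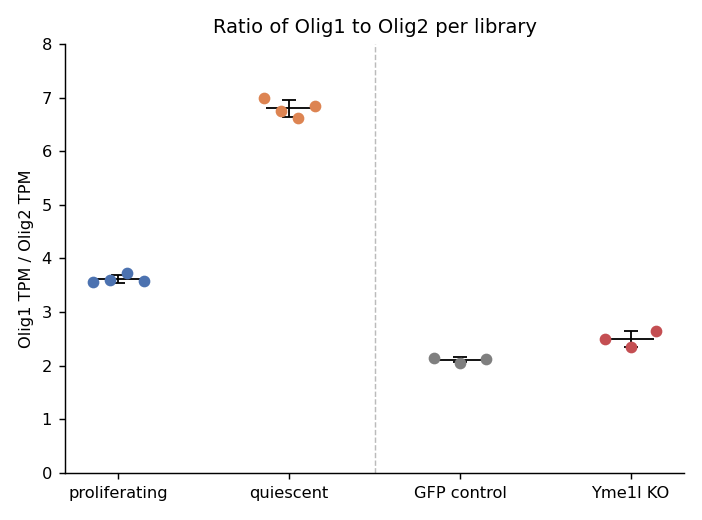
Ratio of Olig1 TPM to Olig2 TPM (y axis, from 0) in each library (points), with group mean and SD. The quiescent libraries lie between 6.62 and 6.99, above the proliferating ones at 3.57 to 3.73, and the KO libraries (2.35 to 2.64) lie above the GFP control (2.05 to 2.15).

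The deposited transcript table assigns all counts of Olig1, Olig2 and Gpr17 to 1 transcript each, and 97.0% to 99.4% of Cnp counts to Cnp-201. Bcas1 was divided among several. Bcas1-201 held 78.5% to 85.6% of Bcas1 counts in the GFP control and 83.5% to 88.7% in the KO libraries. In the first pair its share ran from 0.0% to 96.0% among proliferating libraries. In quiescent replicates 2 and 3 all Bcas1 counts went to Bcas1-201, and in replicates 1 and 4 all went to Bcas1-202. These shares rest on 18 to 29 counts per quiescent library, and replicates of 1 group disagreed, so no Bcas1 transcript was compared between groups.

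**Figure D4:**
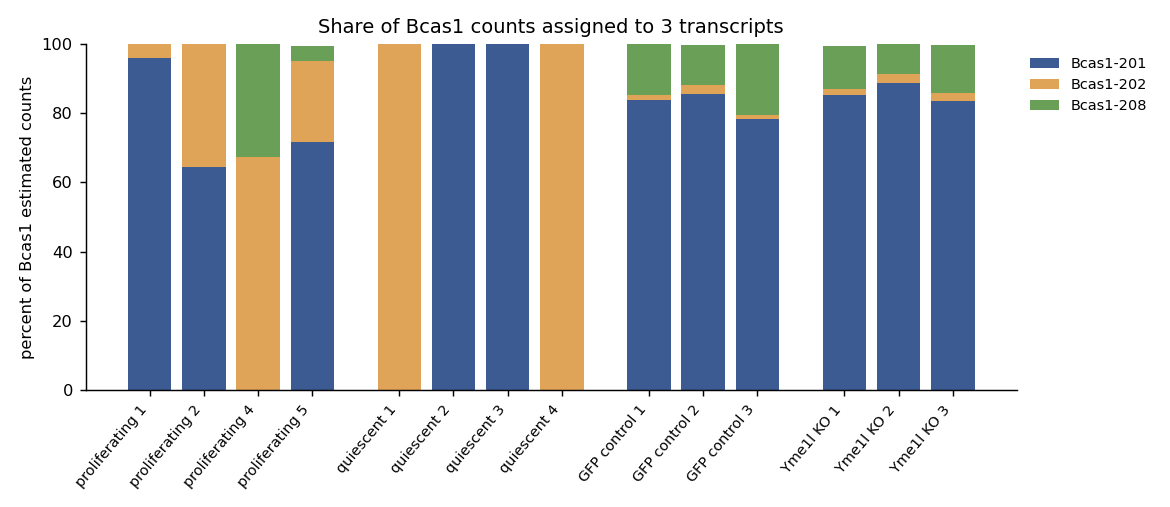
Share of Bcas1 estimated counts (y axis, percent) assigned to 3 transcripts in each library (bars). The 6 libraries of the GFP control and KO are alike, with Bcas1-201 at 78.5% to 88.7%, while the proliferating and quiescent libraries switch between Bcas1-201 and Bcas1-202.

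Other genes of the lineage were described through lists of oligodendrocyte markers and regulators. In quiescent cells 9 of the 15 tested progenitor markers of 18 listed rose and 2 fell (median log2 fold change 0.59). Of all tested genes 29.9% were higher and 35.5% lower, with a median of -0.01. Sox8, a transcription factor of glial precursors, rose from 474 ± 20.7 to 652 ± 38.8 CPM (SD, n = 4 and 4), with a log2 fold change of 0.46. Chst11, a chondroitin sulfotransferase, rose by 0.55, and Xylt1, which starts proteoglycan chains, fell by 0.43. Cacng4 fell by 0.21, a call that was lost under 11 of 19 alternatives, among them leaving out proliferating replicate 4 or any quiescent library. Sox10, the transcription factor that defines the committed lineage, had 6 counts in all proliferating libraries together and 0 in every other group.

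Of differentiation markers, 4 of 10 tested (16 listed) rose and 2 fell in quiescent cells (median 0.30), where 29.9% of all genes rose and 35.5% fell. Tnfrsf21, the death receptor 6 gene, rose by 1.70 on the log2 scale, from 372 to 1207 CPM, and Tmem163, a zinc transporter, was at 3.48 ± 0.724 CPM against 0.0276 ± 0.0552 CPM (SD, n = 4 and 4). Mycl fell by 0.86 and Tcf7l2, a Wnt effector, by 0.35, and the Tcf7l2 call was lost under 7 of 19 alternatives, among them leaving out proliferating replicate 2, 4 or 5 or quiescent replicate 1, 2 or 4. Myrf, which encodes a transcription factor that switches on myelin genes, rose by 1.24 (edgeR adjusted p = 6.7e-06). Opalin, which marks myelinating cells, had 20 counts in proliferating cells and 0 in quiescent ones, too few to be tested.

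Of the myelin list, 6 of 10 tested (24 listed) rose and 3 fell in quiescent cells (median 0.39), against 29.9% and 35.5% of all genes. The adhesion molecule gene Nfasc rose from 121 to 697 CPM, a log2 fold change of 2.53, and the small heat shock protein gene Cryab rose by 0.77. Nfasc is also made by neurons and Cryab by astrocytes. Plekhb1 fell by 1.25, from 596 to 252 CPM, and Pllp, a proteolipid of myelin, fell by 1.77, from 4.66 to 1.34 CPM. Mog and Gjb1 had 0 counts in all 4 groups.

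Of the 12 genes listed as holding back oligodendrocyte differentiation, all tested, 9 rose and 2 fell in quiescent cells (median 1.02). Over all genes the shares were again 29.9% and 35.5%. Tcf4, whose place in this list is uncertain, was among those that rose, by 0.65. The BMP target Id2 rose from 51.4 ± 4.66 to 419 ± 7.39 CPM (SD, n = 4 and 4), a log2 fold change of 3.03, and Hey1, an effector of Notch and BMP signals, rose by 2.45. The Notch effectors Hes1 and Hes5 fell by 0.62 and 0.56. Of 15 tested genes listed at the lineage's start, 5 rose and 8 fell (median -0.24), beside 29.9% and 35.5% of all genes. The list does not sort activators from inhibitors of the hedgehog pathway, so its counts give that pathway no direction. Smarca4, the chromatin remodeller subunit that acts with Olig2, fell by 0.56, Gli2 of the hedgehog pathway fell by 0.95, Gli3 rose by 1.85 and the hedgehog receptor Ptch1 by 0.46. The number that rose was 2 with library size alone and 3 without proliferating replicate 2 or 5, and the number that fell was 5 without proliferating replicate 1 or quiescent replicate 1 or 4. Among PDGF ligands, Pdgfa, the main ligand of Pdgfra, fell by 0.62 while Pdgfc rose by 1.64 and Pdgfd by 3.03. Pdgfb had 20 counts in proliferating and 1 in quiescent cells, and Pdgfrb had 0 in both.

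Across the 12 astrocyte markers, 8 rose and 3 fell in quiescent cells (median log2 fold change 0.75), against 29.9% and 35.5% of all genes. Those that fell were Fgfr3 (-0.95), Aldh1l1 (-0.64) and Sox9 (-0.43). Their summed level was 5188 to 5341 CPM in proliferating and 7025 to 7269 CPM in quiescent libraries. Of 12 tested stem and progenitor markers 4 rose and 6 fell (median -0.12), and their sum was 5484 to 5670 and 5762 to 6411 CPM. Sox9 and Slc1a3 are in both lists. The part of these changes in the lineage gene results was not tested.

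**Figure D5:**
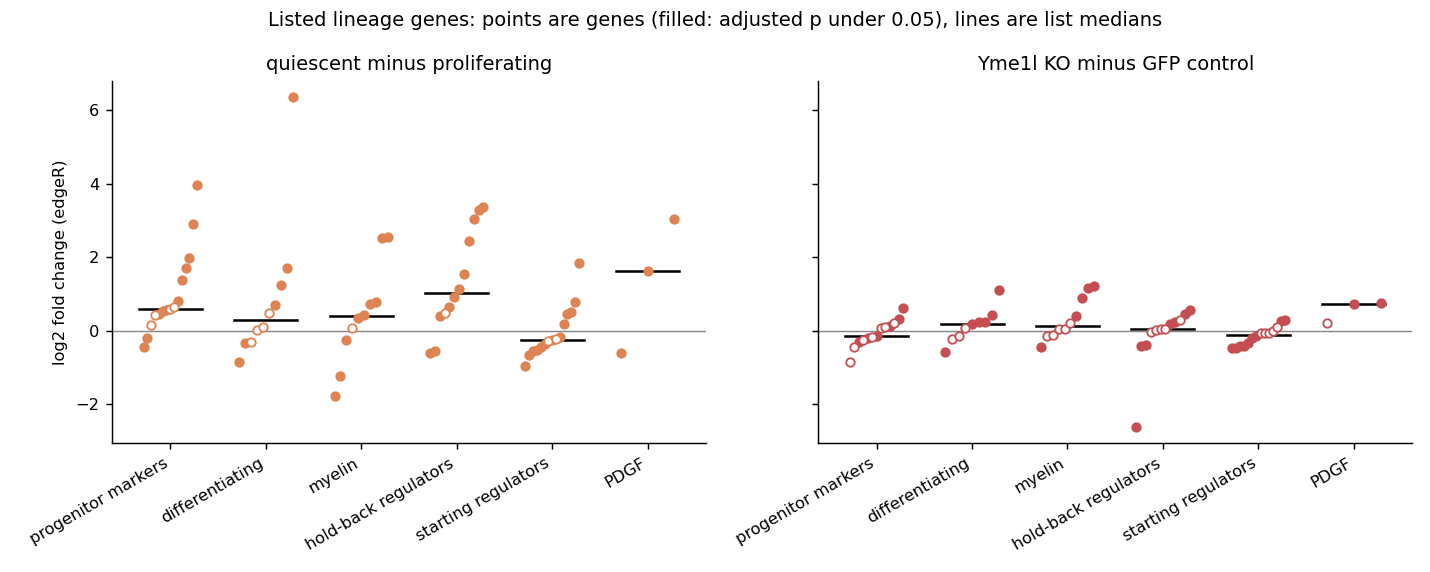
Log2 fold change (y axis) of each tested gene (points, filled at an edgeR adjusted p under 0.05) in 6 lists, with the list median (line), for quiescence (left) and Yme1l KO (right). Genes listed as holding back differentiation have the median of 1.02 in quiescence against 0.05 in the KO. Those listed at the lineage's start have medians below 0 in both (-0.24 and -0.11).

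In the KO comparison 3 of 13 tested progenitor markers rose and 3 fell (median -0.15), while over all genes 25.4% rose and 26.2% fell (median 0.00). The AMPA receptor gene Gria3 rose by 0.62 and Cspg4, which encodes the NG2 proteoglycan, rose by 0.32 on the log2 scale. Chst11 fell by 0.31 and Sox8 fell by 0.21, and without KO replicate 1 the number of progenitor markers that fell was 5. Of differentiation markers, 5 of 9 rose and 1 fell (25.4% and 26.2% of all genes), with 2 rising under limma on log2(TPM + 1) and on TPM-scaled counts. Tnfrsf21 rose by 1.10, from 344 to 736 CPM, the deacetylase gene Sirt2 rose by 0.44 and Rras2 fell by 0.58.

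Of the myelin list, 4 of 10 tested genes rose and 1 fell in the KO (median 0.12), against 25.4% and 26.2% of all genes. Gsn, which encodes an actin-severing protein, rose by 0.89, from 9.62 to 17.9 CPM. Aspa fell by 0.43, a call that was lost under 13 of 18 alternatives, among them leaving out any library but KO replicate 3. Mag, Mobp and Fa2h had 0 counts in both groups.

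Of the 12 genes listed as holding back differentiation, 4 rose and 3 fell in the KO (median 0.05). Over all genes 25.4% rose and 26.2% fell. Tcf4, uncertain in this list, was among those that rose, by 0.24. Id2 rose by 0.55 and Id1 by 0.45, Hes5 fell by 2.61, from 2.71 to 0.434 CPM, and Lingo1 fell by 0.38, a call that was lost with DESeq2 without KO replicate 3 (adjusted p = 0.0538). Of 14 tested genes listed at the lineage's start, 2 rose and 7 fell (median -0.11), beside 25.4% and 26.2% of all genes. Sox9 rose by 0.29 and Nfia by 0.27, while Smarca4 fell by 0.42, and the Nfia call was lost with all 14 libraries in one fit (adjusted p = 0.192). The number that fell was 3 under limma on log2(TPM + 1). Pdgfa rose by 0.72, from 49.0 to 80.6 CPM, Pdgfd rose by 0.75, and Pdgfc had a log2 fold change of 0.22 (adjusted p = 0.129). The Pdgfd call was lost under 3 of 18 alternatives, one of them without GFP control replicate 2 (0.52, adjusted p = 0.0712). Of 11 tested astrocyte markers 7 rose and 2 fell (median 0.29), beside 25.4% and 26.2% of all genes. The list summed to 2369 to 2387 CPM in the control and 2650 to 2896 CPM in the KO. The part of this in the lineage results was not tested.

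Genes whose profile was most like that of a lineage gene were found by the root mean square difference in log2(CPM + 1) over the 14 libraries, after centring each gene within its table. Among 11477 genes, Glul (0.0508), Plxnb2 (0.0512) and Zcchc24 (0.0525) were nearest to Olig1. Nearest to Olig2 were Midn (0.0641), Cables1 (0.0644) and 2900026A02Rik (0.0683). Bcas1 had Trim66 (0.151), Adam19 (0.158) and Myc (0.187) as its nearest genes, and Cnp had Ppp1r37 (0.0483), Sdc4 (0.0519) and Dennd1a (0.0546). For Pdgfra the nearest genes, Spats1, Arhgap20 and mt-Nd2, were at 0.177 to 0.182.

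The authors' deposited table codes its fold changes as proliferating minus quiescent. In the authors' deposited table the log2 values are 3.33 for Gpr17, 2.72 for Bcas1, 1.22 for Nkx2-2, 1.12 for Olig2 and 0.21 for Olig1. For the KO minus the control the authors' deposited table gives 0.43 for Olig1 and 0.19 for Olig2. The directions are those of the counts above.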

How the data were processed

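Poly-A libraries were made with a stranded kit, per the labels' protocols. The authors deposited salmon gene tables, per the file headers, with estimated counts, TPM and transcript counts. They also deposited a table of log2 fold changes with p-values, their standard errors (a score) and a mean normalised signal per gene, per the file headers, and the submitters' processing notes give GRCm39, R 4.0.3 and DESeq2 1.30.1. The deposited gene counts need not be whole and were rounded.

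The main test was the robust quasi-likelihood test of edgeR 4.0.16 in R 4.3.3, over all genes of a pair, after filterByExpr by group and TMM scaling. Calls needed an adjusted p (Benjamini-Hochberg) under 0.05. CPM use the TMM library size. Standard errors were derived from the F statistic as the absolute log2 fold change divided by its root. The interaction used all 14 libraries. The script was tested on simulated counts. Floors are 3 counts over a group and cover counting error only.

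The 8 genes and the lists were chosen with earlier results of these data known. Up to 4 genes per list are named, the 2 with the lowest adjusted p in each direction, all genes of lists of 5 or fewer, and the 3 nearest genes per member; some genes this rule names are not reported here. Sox10, Myrf, Opalin and the listed genes at 0 were chosen after their values were seen. Groups and columns came from the labels and the deposited sample sheet. Alternatives were RLE factors, library size alone, DESeq2 (1.42.0), a limma 3.58.1 fit to log2(TPM + 1) and to log2(TPM + 0.1), filters, a 2-fold threshold, a replicate block, all libraries in one fit, and leaving out each library. Length-scaled counts and, after seeing the data, TPM-scaled counts and DESeq2 without KO replicate 3 were added.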

Additional observations from a re-analysis of the deposited data

Results flagged for a closer look

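The ratio of Olig1 to Olig2 TPM in proliferating replicate 4 was 3.728, above the other 3 proliferating libraries (3.568 to 3.593). Its gap to the nearest library was 0.844 of the range of the group, above the 0.829 that Dixon's test sets for 4 samples. It was the only such library among the 18 groups of 4 values looked at, and by chance about 1 in 20 would be found. It lay far below the lowest quiescent ratio of 6.617.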

How the results depend on the processing

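The falls of Olig1, Olig2, Nkx2-2, Gpr17 and Bcas1 in quiescence kept direction and adjusted p under 0.05 under the 19 alternatives run for each, with log2 fold changes of -0.41 to -0.16, -1.32 to -1.07, -1.44 to -1.14, -3.75 to -1.36 and -2.89 to -2.33. The rises of Olig1 (0.37 to 0.49) and Olig2 (0.16 to 0.22, adjusted p at most 0.0357) in the KO did so under 18. At a 2-fold threshold 4 lineage genes were lower in quiescence, without Olig1, 0 rose in the KO, and over all genes 399 rose and 261 fell, against 1239 and 1295 in quiescence. Leaving out 1 library gave 0 to 1 lineage genes lower in the KO. Over the libraries left out in turn, Cnp in quiescence ran from -0.104 to 0.0286 (above 0 without quiescent replicate 2). Pdgfra in the KO ran from -0.0284 (without GFP control replicate 3) to 0.264, and was -0.00414 with DESeq2 without KO replicate 3. Its difference between the effects ran from -0.311 to 0.0829, above 0 without 6 of the libraries, and was 0.0576 with library size alone. Cnp with no filter gave 0.16 (adjusted p = 0.0375) in the KO, and its difference was 0.35 (adjusted p = 0.00259) with library size alone. The cause of these changes was not tested. Library size alone moved the share of calls that were higher in quiescence from 45.7% to 35.1% (2823 higher, 5219 lower). With a replicate block 0 lineage genes rose and 5 fell in quiescence (2859 and 3694 of all genes), and 2 rose and 0 fell in the KO (3063 and 3189). Deviations from the group means of same-numbered libraries had correlations of -0.346 to -0.0139 in the first pair and -0.0475 to 0.00196 in the second. Such deviations sum to 0 within a group and the same-numbered libraries are few. They therefore cannot tell whether the numbers pair the libraries. Of 44 named list genes by comparison, 6 lost a call under an alternative and 0 reversed. Length-scaled counts differed from the counts by at most 0.0554 and tested nothing. Gpr17 and Mbp are limited by depth.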
